A study of Mus musculus with 43 samples.

Results

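Neuropeptide Y and its Y1 and Y5 receptors were followed across 4 laser-captured hypothalamic nuclei of fed and fasted mice. The genes were taken by identifier from a table of 10127 genes, in which the rows that map to Npy, Npy1r and Npy5r are 3. The ventromedial (VMH), dorsomedial (DMH), paraventricular (PVN) and arcuate (ARC) nuclei were captured. All mice were adult males of the strain labelled C57/BL6 (C57BL/6J in the methods) with a congenital deletion of the paternal copy of Snord116, a cluster of small nucleolar RNA genes of the Prader-Willi region that is expressed from the paternal allele. Because no wild-type library was analysed here, fed and fasted deletion mice were compared with each other, and nothing below separates the deletion from the background strain. The mice had eaten ad libitum or had been without food for 24 hours. The 41 libraries came from 12 mice, 6 fed and 6 fasted, and a library is named by its nucleus and mouse number (ARC-86 is the ARC library of mouse-86). There were 4 fasted and 5 fed libraries of ARC, 5 and 6 of DMH, 5 and 5 of PVN, and 6 and 5 of VMH.

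Neuropeptide Y is a secreted peptide that stimulates feeding. In ARC it is made by the neurons that also make agouti-related protein, which are restrained by leptin and insulin and active in fasting, and which send axons to the other 3 nuclei. The peptide acts on receptors coupled to inhibitory G proteins, of which Y1 (Npy1r) and Y5 (Npy5r) are the ones chiefly tied to feeding. Levels of the peptide's mRNA therefore describe where it is made, and levels of receptor mRNA describe cells that can respond, including ARC neurons themselves.

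Depth here is the read total to which the CPM of a library were scaled, read from the size of its smallest steps. It had a median of 4.10 M reads (M stands for mega) and a range of 1.94 to 8.23 M. It is not the number of reads sequenced, for which the paper gives a larger average. Levels are in CPM, read counts scaled to a common library total. The nuclei were checked against marker genes. The summed level of the 4 ARC markers measured (Isl1, Th, Crabp1 and Rxfp1, of 10 listed) was 233 to 427 CPM in ARC libraries, against 6.74 to 31.4 CPM in VMH, 17.4 to 83.8 CPM in PVN and 43.9 to 156 CPM in DMH. The 4 DMH markers measured, of 6 listed, summed to 403 to 1096 CPM in DMH, against at most 118 CPM in ARC, 89.7 CPM in VMH and 7.70 CPM in PVN. One of them, Gpr50, was at 106.1 CPM in ARC-86 and 104.9 CPM in DMH-86, the lowest DMH library. Avp, the vasopressin gene of PVN neurons, was at 395 to 1475 CPM in PVN and at most 10.04 CPM elsewhere. Fezf1, a transcription factor of VMH neurons, was at 172 to 256 CPM in VMH and at most 21.9 CPM elsewhere. The defining ARC genes Agrp and Pomc were not analysed here. In tissue of mixed cells, fewer cells of a type and less RNA per cell cannot be told apart.

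Npy (ENSMUSG00000029819) lies on chromosome 6 at 49822710 to 49829507 on the plus strand of GRCm38. Npy1r (ENSMUSG00000036437) lies on chromosome 8 at 66697192 to 66706792 on the plus strand. Npy5r (ENSMUSG00000044014) lies beside it at 66679965 to 66688128 on the minus strand, so the receptor genes are transcribed away from each other across a gap of 9064 bases. GENCODE M21 annotates 0 genes overlapping any of the 3. On their far sides the nearest protein-coding genes were Naf1 and Tktl2, which were not analysed here.

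The bases directly upstream of the annotated exons of Npy and Npy5r are shown. These members had a called fasting change, and motifs were found there. Npy1r is not shown, because most of its window (chr8:66697172-66697421) lies past the start of the annotated gene at 66697192. The sequences are from RefSeq (GRCm38.p6), 5′ to 3′ on the strand of the gene, with the motifs found in capitals. The Npy5r stretch is the first 216 of the 250 bases, ends where the GENCODE exon begins and leaves out the 34 bases next to the RefSeq start.
Npy, chr6:49822460-49822709, plus strand: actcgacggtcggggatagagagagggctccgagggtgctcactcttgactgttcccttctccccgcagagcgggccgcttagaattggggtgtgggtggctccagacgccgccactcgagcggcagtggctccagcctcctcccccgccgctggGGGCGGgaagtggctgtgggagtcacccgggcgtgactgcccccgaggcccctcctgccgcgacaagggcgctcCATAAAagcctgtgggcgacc
Npy5r, chr8:66688129-66688344, minus strand: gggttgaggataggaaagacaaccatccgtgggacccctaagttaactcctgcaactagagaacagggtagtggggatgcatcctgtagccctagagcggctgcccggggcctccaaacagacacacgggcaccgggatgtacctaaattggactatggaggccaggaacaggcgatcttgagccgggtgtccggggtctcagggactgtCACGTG

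Motifs were searched on both strands in the 250 bases upstream of each RefSeq start. The Npy window held GGGCGG, the core of a GC box, 95 to 90 bases upstream. Nearer to the start, 21 to 16 bases upstream, it held the run CATAAA, which resembles the canonical element of core promoters. The Npy5r window held CACGTG, an E-box, 40 to 35 bases upstream of the RefSeq start, directly before the GENCODE exon. The same windows of 32851 RefSeq promoters held the GC box in 32.74%, the E-box in 6.021% and the run CATAAA in 10.76%. This run was added to the search after the Npy sequence had been seen. Also searched were TGACGTCA, the cAMP response element, and its core TGACG, which lie in 1.546% and 17.77% of these promoters. The forkhead element GTAAACA lies in 3.166% and the canonical TATA box TATAAA in 12.37%. None of these was found in the 3 windows, and the Npy1r window held no motif searched. As most of that window lies within the annotated gene, the bases upstream of annotated Npy1r were hardly searched. A match says only that the letters are there.

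Npy mRNA was an ARC transcript. Its level averaged 473 ± 338 CPM in ARC (SD, n = 9) against 5.38 ± 9.48 CPM in DMH (n = 11), 3.08 ± 2.47 CPM in PVN (n = 10) and 5.55 ± 5.43 CPM in VMH (n = 11). The lowest ARC library, ARC-308, held 195 CPM, and the highest library of any other nucleus, DMH-92, held 33.4 CPM. DMH-92 raised the DMH mean, and the medians were 1.51 CPM in DMH, 2.21 CPM in PVN and 3.00 CPM in VMH. In a fit over all libraries ARC exceeded the mean of the other nuclei by 6.91 ± 0.32 on the log2 scale (SE, adjusted p = 5.82e-23, limma). Of all genes tested, 9.73% were called higher in ARC. Within mice, ARC was above DMH, PVN and VMH in 9 of 9 mice each. Among DMH, PVN and VMH the level of Npy did not pass the test in any pair, and the 95% interval of DMH minus PVN ran from -0.79 to 0.70 on the log2 scale. With mouse as a fixed block, however, DMH was below VMH by a called difference of -0.84 (adjusted p = 0.0761), and within mice DMH was the lower in 9 of 10.

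Npy1r was measured in every library and was also highest in ARC. Its mean was 89.3 ± 25.4 CPM in ARC, 30.0 CPM in PVN, 29.2 CPM in VMH and 18.5 CPM in DMH. ARC exceeded the mean of the other nuclei by 1.78 ± 0.15 on the log2 scale (adjusted p = 4.48e-13, limma). The lowest ARC library held 58.1 CPM and the highest of the other nuclei 47.8 CPM, so ARC lay above all the rest, as it did for 0.227% of genes. DMH was the lowest nucleus, 0.64 ± 0.18 below PVN (adjusted p = 0.00916) and 0.64 ± 0.17 below VMH (adjusted p = 0.00558). Of all genes 8.18% were called lower in DMH than in PVN and 11.6% lower than in VMH. Of the mice with both nuclei, 9 of 10 had less Npy1r in DMH than in PVN. PVN and VMH differed by 0.00 ± 0.18 on the log2 scale, with a 95% interval from -0.35 to 0.36.

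Npy5r was also highest in ARC. Its mean was 18.2 CPM in ARC, 4.65 CPM in DMH, 4.02 CPM in VMH and 3.44 CPM in PVN. ARC exceeded the mean of the other nuclei by 2.33 ± 0.39 on the log2 scale (adjusted p = 7.62e-06, limma). Single libraries overlapped, since ARC-86 held 5.78 CPM and DMH-111 held 16.7 CPM. No pair among DMH, PVN and VMH passed the test. PVN lay 1.12 ± 0.37 below the mean of the other nuclei (adjusted p = 0.0285, with 11.6% of genes called lower), a call that was lost without mouse-305 (adjusted p = 0.114) or mouse-308 (adjusted p = 0.152).

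**Figure D1:**
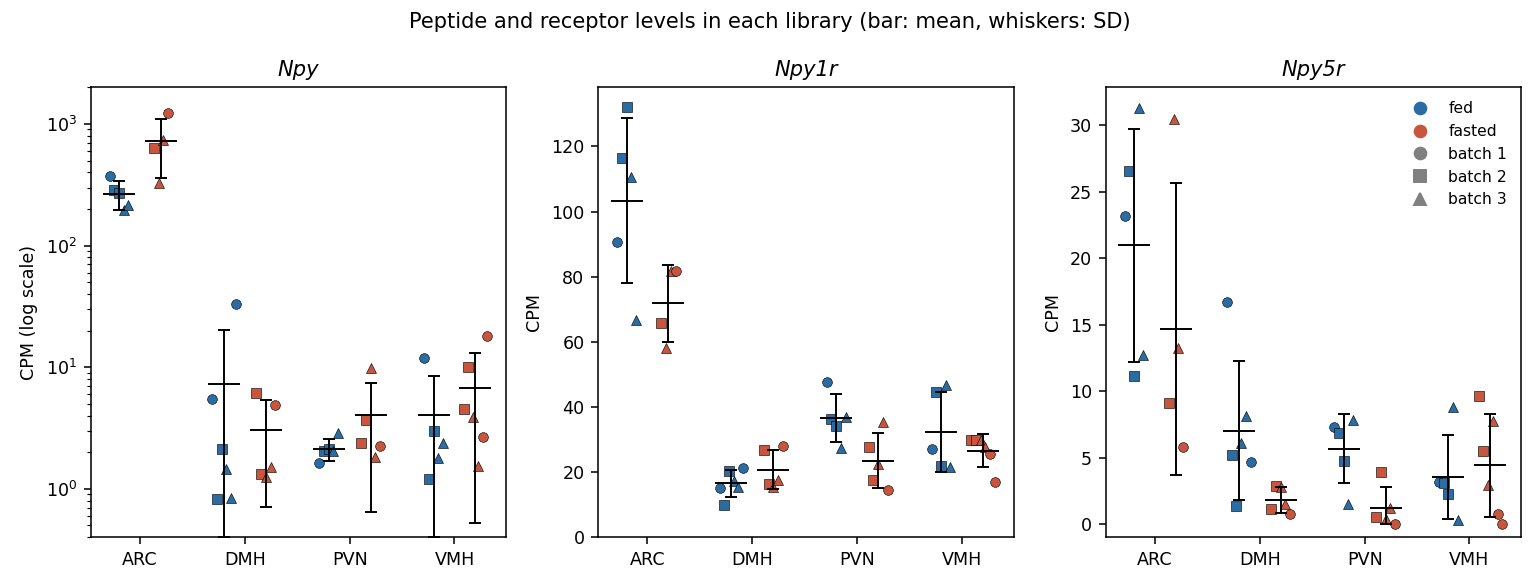
Level of each gene in every library, in CPM, by nucleus (blue, fed; red, fasted; marker shape, batch), with bars for group means and whiskers for SD, ended at 0, or for Npy at the bottom of its log axis, where the mean minus SD is lower. All 9 ARC libraries hold more Npy than any library of the other nuclei, whose highest value is 33.4 CPM.

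Ordered by group means, the Npy groups ran from fasted ARC (730 ± 373 CPM) and fed ARC (267 ± 69.4 CPM) down to fed PVN (2.15 ± 0.444 CPM). The 6 groups outside ARC followed one another with overlapping ranges and overlapping intervals of mean ± SD. For Npy1r the order was fed ARC (103 ± 25.3 CPM), fasted ARC (71.9 ± 11.8 CPM), fed PVN, fed VMH, fasted VMH, fasted PVN, fasted DMH and fed DMH (16.5 ± 4.16 CPM). Only the step from fasted ARC to fed PVN had ranges that did not overlap. For Npy5r the order was fed ARC (21.0 ± 8.77 CPM), fasted ARC, fed DMH, fed PVN, fasted VMH, fed VMH, fasted DMH and fasted PVN (1.21 ± 1.57 CPM), and every neighbour overlapped the next.

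To set the genes side by side, levels were divided by the length of the merged exons, 566 bases for Npy, 3454 for Npy1r and 2555 for Npy5r. In ARC the mean was 836 CPM per kb for Npy, 25.9 for Npy1r and 7.12 for Npy5r. Npy was above Npy1r in 9 of 9 ARC libraries, but in 4 of 11 DMH, 2 of 10 PVN and 3 of 11 VMH libraries. Npy1r was above Npy5r in 40 of 41 libraries. The exception was DMH-111, with 6.54 CPM per kb of Npy5r and 4.34 of Npy1r. In fed mice the ratio of mean Npy1r to mean Npy5r per kb was 6.76 in VMH, 4.77 in PVN, 3.64 in ARC and 1.74 in DMH. In fasted mice it was 14.4 in PVN, 8.51 in DMH, 4.46 in VMH and 3.63 in ARC, another order. The fasted PVN ratio depends on PVN-101, at 3.91 CPM of Npy5r, which raised the group mean to 1.21 CPM, against a median of 0.531 CPM. These ratios were not tested.

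**Figure D2:**
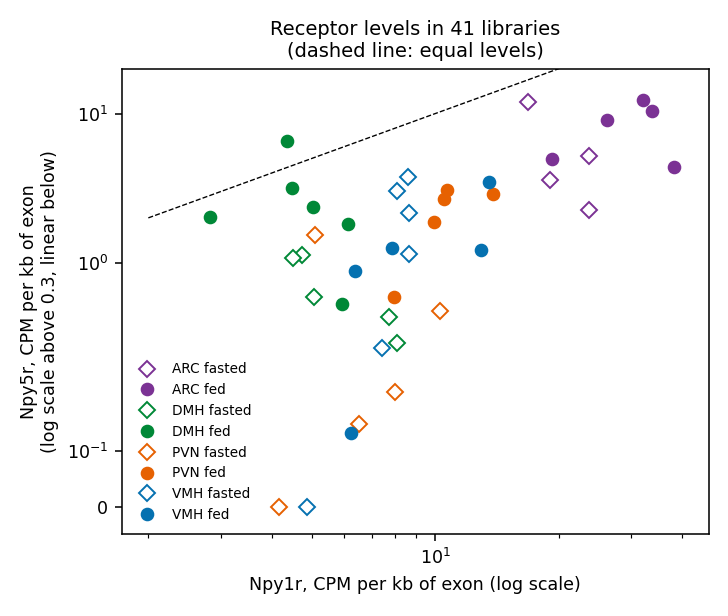
Npy5r against Npy1r in each of 41 libraries, in CPM per kb of merged exon, on a log axis for Npy1r and an axis for Npy5r that is linear below 0.3; filled circles are fed and open diamonds fasted libraries. The 40 libraries below the dashed line of equal levels have more Npy1r than Npy5r per kb, and the ARC libraries lie at the right.

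The first question of the fed and fasted design was whether the peptide responded to food deprivation. In fed ARC, Npy stood at 370 CPM in ARC-111, 288 in ARC-125, 269 in ARC-127, 195 in ARC-308 and 214 in ARC-313. In fasted ARC it stood at 636 CPM in ARC-100, 326 in ARC-305, 732 in ARC-311 and 1226 in ARC-86. The groups overlapped, because fasted ARC-305 lay below fed ARC-111, but these came from different batches. Within each batch, of which the first held 1 fasted and 1 fed ARC library, the lowest fasted library was above the highest fed library, a pattern shared by 4.13% of genes tested in ARC.

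Npy rose in fasted ARC by 1.35 ± 0.16 on the log2 scale, with a 95% interval from 1.00 to 1.69 (adjusted p = 0.00114, limma). The ratio of group means was 2.73. Npy had the smallest p of 9654 genes, of which 0.176% were called and 0.104% were called higher. Within batches the difference was 1.73 in batch 1, 1.19 in batch 2 and 1.26 in batch 3. The call was lost when batch was left out of the fit, at a log2 change of 1.33 (adjusted p = 0.314). The ARC marker sum was 259 to 427 CPM in fasted and 233 to 393 CPM in fed libraries. It was highest in ARC-86, the library with most Npy, as was the DMH marker sum at 118 CPM, against up to 70.5 CPM in fed ARC. The sum of tanycyte and ependyma markers measured (Col25a1 and Foxj1, 2 of 4 listed) was also highest there. It was 109.5 CPM, against up to 77.6 CPM in fed ARC, and 105.5 CPM of it was Col25a1. Col25a1 had medians of 63.2 and 47.7 CPM in fasted and fed ARC, but 86.2 and 94.3 CPM in VMH. This sum therefore cannot be read as tanycytes and ependyma alone. The vessel markers measured (Cldn5, Flt1 and Kdr, 3 of 4 listed) summed to 39.8 to 51.6 CPM in fasted and 55.3 to 68.4 CPM in fed ARC libraries, which do not overlap. Of single genes tested in ARC, 1.02% had groups that did not overlap, with fasted lower. By gene the log2 differences were -0.53 for Flt1, -0.67 for Kdr and 0.30 for Cldn5. None passed (adjusted p = 0.559, 0.691 and 0.895, limma). The neuron markers measured (2 of 5 listed) summed to 462 to 507 CPM in fasted and 436 to 550 CPM in fed ARC libraries, with log2 differences of opposite sign, -0.59 for Tubb3 (adjusted p = 0.266) and 0.20 for Syt1 (adjusted p = 0.674). The part of these markers in the result was not tested.

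Outside ARC no fasting change of Npy passed the test. The share of genes called there was 0.367% in PVN, 0.0208% in VMH and 0.0103% in DMH. The estimates were 0.07 ± 0.60 in DMH, 0.54 ± 0.51 in PVN and 0.50 ± 0.56 in VMH on the log2 scale, with intervals that reached 1.32, 1.62 and 1.67. Fed DMH had a lowest value of 0.831, a median of 1.79 and a highest of 33.4 CPM. Fasted DMH held 6.12, 1.32, 1.26, 1.51 and 4.91 CPM. A single fed library, DMH-92, was above all the others, and the remaining values of the groups were interleaved.

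In PVN, fed libraries held 1.63, 2.03, 2.14, 2.07 and 2.85 CPM of Npy, and fasted ones 2.39, 3.70, 9.93, 1.82 and 2.27 CPM. In VMH, fed libraries held 11.9, 1.21, 3.00, 1.81 and 2.37 CPM, and fasted ones had a lowest value of 1.55, a median of 4.18 and a highest of 18.1 CPM. These levels rested on 3 to 59 reads a library, and fed and fasted groups overlapped in both nuclei. Crabp1, an ARC marker whose level followed Npy across libraries, was at 10.1 CPM in VMH-101, which held 10.1 CPM of Npy, but at 0.306 CPM in VMH-86, which held 18.1 CPM. Its median was 0.957 CPM in fasted VMH and 0.345 CPM in fed VMH, beside 14.1 and 11.99 CPM for Isl1, 1.13 and 1.36 CPM for Th and 0.673 and 0.679 CPM for Rxfp1. The sum of these 4 ARC markers was 6.74 to 31.4 CPM in fasted and 9.998 to 16.2 CPM in fed VMH libraries. In PVN the medians in fasted and fed libraries were 47.0 and 33.3 CPM for Th, 0.403 and 0.815 CPM for Isl1, 0.403 and 0.476 CPM for Crabp1 and 0.202 and 0.254 CPM for Rxfp1. In DMH they were 60.8 and 42.5 CPM for Th, 36.9 and 20.4 CPM for Isl1, 2.81 and 4.52 CPM for Crabp1 and 0.263 and 0.412 CPM for Rxfp1. Th did not mark ARC apart from these nuclei, with medians of 48.4 and 45.8 CPM in fasted and fed ARC. Carry-over of ARC tissue was not tested.

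The ARC rise was not shown to differ from the other nuclei. The ARC change exceeded that of DMH by 1.41 ± 0.77 on the log2 scale (adjusted p = 0.946), that of PVN by 0.77 ± 0.78 (adjusted p = 0.971) and that of VMH by 0.79 ± 0.77 (adjusted p = 0.975). An F-test of the fasting response between the 4 nuclei gave Npy an adjusted p of 0.98, with Npy1r at 0.933 and Npy5r at 0.934. That test called 0 of 10121 genes by limma, while 5.11% had an unadjusted p under 0.05.

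**Figure D3:**
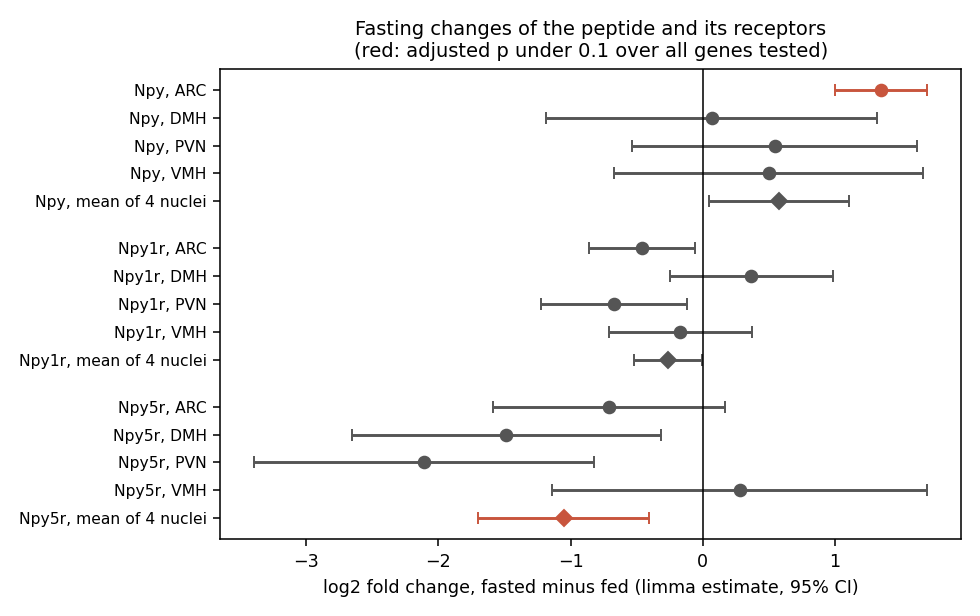
Fasted minus fed change of each gene on the log2 scale in each nucleus and averaged over the 4 nuclei, as limma estimates with 95% confidence intervals; red marks an adjusted p under 0.1 over all genes tested. Npy in ARC (1.35) and Npy5r averaged over nuclei (-1.05) are the values in red.

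The receptors were compared next. Npy1r in fed PVN stood at 47.8, 36.4, 34.3, 27.4 and 36.9 CPM, and in fasted PVN at 27.6, 17.6, 22.5, 35.5 and 14.4 CPM. The fasted values lay mostly lower, but fasted PVN-311 was above 2 of the fed libraries and fasted PVN-100 above 1. The difference was -0.67 ± 0.26 on the log2 scale and did not pass the test (adjusted p = 0.401, limma). Within batches it was -1.70, -0.67 and -0.17 in batches 1, 2 and 3.

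In ARC, fed libraries held 90.7, 117, 132.1, 110.5 and 66.6 CPM of Npy1r and fasted ones 65.9, 58.1, 81.7 and 81.8 CPM. Of the fed libraries 4 were above every fasted one, and ARC-313, at 66.6 CPM, was not. The difference of -0.46 ± 0.19 did not pass the test (adjusted p = 0.57). In DMH the estimate was 0.37 ± 0.30 and in VMH -0.17 ± 0.26, and neither passed. DMH libraries ranged from 9.77 to 27.9 CPM and VMH libraries from 16.8 to 46.6 CPM, with fed and fasted values interleaved. Averaged over the 4 nuclei Npy1r had a log2 difference of -0.27 ± 0.13 (adjusted p = 0.352).

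Npy5r in fed PVN stood at 7.34 CPM in PVN-111, 6.86 in PVN-125, 4.76 in PVN-127, 1.51 in PVN-308 and 7.85 in PVN-313, on 27, 27, 20, 11 and 33 reads. In fasted PVN it stood at 0.531 CPM in PVN-100, 3.91 in PVN-101, 0.382 in PVN-305, 1.21 in PVN-311 and 0 in PVN-86, on 2, 18, 1, 6 and 0 reads. A count of 0 in PVN-86 allows up to 0.567 CPM. The groups overlapped through fed PVN-308 and fasted PVN-101 alone. Within each of the 3 batches every fasted library was below every fed one, as for 2.68% of genes tested in PVN.

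The fed mean of Npy5r in PVN was 4.69 times the fasted mean. PVN-101, at 3.91 CPM, raised the fasted mean to 1.21 CPM, against a fasted median of 0.531 CPM. The PVN difference was -2.11 ± 0.61 on the log2 scale, with a 95% interval from -3.40 to -0.82. It ran from -2.86 to -1.28 under other settings and from -2.52 to -1.64 as single libraries were left out. It did not pass the test over all genes (adjusted p = 0.239, limma), and 0.063% of genes were called lower there. Within batches it was -3.97, -1.54 and -1.74. The only fasted library of batch 1 was PVN-86, at 0 reads, so the size of -3.97 depends on the pseudocount of 0.5.

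In fed DMH, Npy5r had a lowest value of 1.35, a median of 5.64 and a highest of 16.7 CPM. In fasted DMH it stood at 1.11, 2.90, 2.76, 1.51 and 0.755 CPM. Of the fed libraries 5 lay above all fasted ones, and DMH-127 lay among them. The difference was -1.49 ± 0.56 (adjusted p = 0.695), and within batches -2.91, -0.47 and -1.56. It ran from -2.57 to -1.06 under other settings and from -1.86 to -1.01 as single libraries were left out.

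In ARC, fed libraries held 23.2, 26.6, 11.2, 31.3 and 12.7 CPM of Npy5r and fasted ones 9.13, 30.5, 13.3 and 5.78 CPM. Fasted ARC-305 was second only to fed ARC-308, and the difference of -0.71 ± 0.42 did not pass (adjusted p = 0.68). In VMH the estimate had the opposite sign. Fed libraries there held 3.20, 3.11, 2.25, 8.82 and 0.338 CPM, fasted ones ranged from 0 to 9.61 CPM with a median of 4.21 CPM, and the difference was 0.28 ± 0.69 (adjusted p = 0.976). It became -0.31 without fed VMH-313.

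Averaged over the 4 nuclei, Npy5r fell by 1.05 on the log2 scale (SE 0.32, 95% interval from -1.70 to -0.41, adjusted p = 0.0748, limma), while 1.66% of genes were called lower. Within batches the mean over nuclei was -2.76 in batch 1, -0.40 in batch 2 and -0.59 in batch 3. The batch 1 value takes in PVN-86 and VMH-86, both at 0 CPM, so its size depends on the pseudocount. The call was lost without mouse-86 (-0.69, adjusted p = 0.366), mouse-111 (-0.61, 0.435), mouse-100 (-1.02, 0.178), mouse-125 (-1.02, 0.145), mouse-308 (-1.03, 0.152) or mouse-311 (-1.12, 0.115). It was also lost without batch (-1.06, adjusted p = 0.423), with library weights (-0.75, adjusted p = 0.21), with 1 value per mouse (-1.13, adjusted p = 0.375, 0.237% of genes called) and without the ARC libraries (-1.19, adjusted p = 0.152, 1.55% of genes called).

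With the mouse as the unit, an exact permutation test that relabelled mice within batches gave a 2-sided p of 0.037 for Npy5r, 0.037 for Npy1r and 0.954 for Npy. These were 3 tests over 216 relabellings, and the smallest p the design allows is 0.00926. The differences tested were -1.13, -0.27 and -0.07 on the log2 scale. A mouse value is the mean log2 level of a mouse's libraries after adjustment for the differences between nuclei, so it is not the level of any library. For Npy5r the fasted values of batch 1 were 0.735 (mouse-85) and 0.179 (mouse-86), against 3.32 and 2.70 fed. Mouse-85 gave only VMH-85, on 3 Npy5r reads, and PVN-86 and VMH-86 were at 0 reads. Fasted and fed values overlapped in batch 2 (1.77 and 2.69 against 2.93 and 2.01). They lay closer in batch 3 (2.00 and 2.09 against 2.92 and 2.34) than in batch 1. The Npy value rested on fed mouse-92, which gave only DMH-92 and whose adjusted mouse value was 6.98, against 2.47 to 3.75 in the other fed mice. Without it, over 108 relabellings, the difference was 0.47 for Npy (exact p = 0.306), -0.25 for Npy1r (exact p = 0.0556) and -1.23 for Npy5r (exact p = 0.037). In the fit over libraries, the Npy average over nuclei was 0.58 ± 0.26 (adjusted p = 0.327), and 0.71 without mouse-92 (adjusted p = 0.11).

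Mouse-86, a fasted mouse of batch 1, held the lowest Npy5r of all libraries in each of the 4 nuclei, at 5.78 CPM in ARC, 0.755 in DMH and 0 in PVN and VMH. The 0 in VMH allows up to 0.919 CPM. The same mouse had the highest Npy in ARC and in VMH. Its Npy1r was the lowest in PVN (14.4 CPM) and VMH (16.8 CPM) but the highest in DMH (27.9 CPM). The depth of its libraries was 2.65 to 5.29 M reads. ARC-86 had 525 genes at 0, the most of the ARC libraries, whose median was 247, and PVN-86 had the highest CPM sum of all libraries. PVN-86 also held the most Crh (125.5 CPM) and the most Aldh1l1, an astrocyte marker (60.9 CPM), of the fasted PVN libraries, whose medians were 24.8 and 12.9 CPM. The part of these values was not tested. This mouse was singled out after its values had been seen.

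**Figure D4:**
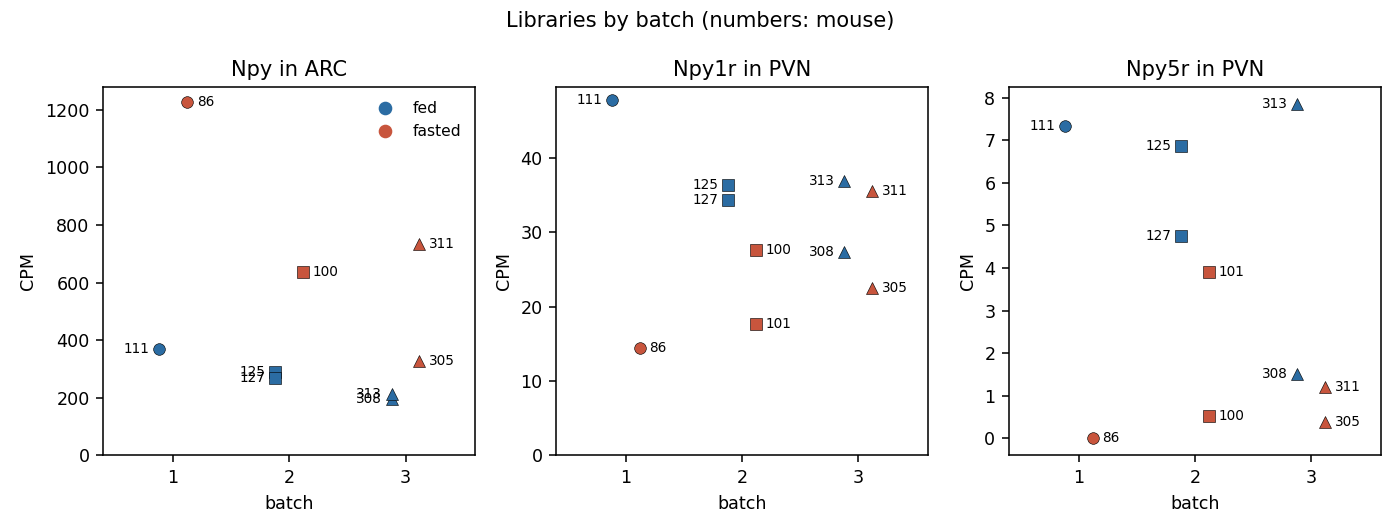
Npy in ARC, Npy1r in PVN and Npy5r in PVN in CPM, by batch, with each library's mouse number beside its point and fed libraries in blue and fasted ones in red. Within each batch all fasted points lie above the fed ones for Npy in ARC and below them for Npy5r in PVN, while Npy1r is mixed in batch 3.

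Genes whose level over the 41 libraries followed each member most closely were sought among 7638 genes. These values are descriptions, since libraries of one nucleus share their position and those of one batch their preparation. For Npy they were Crabp1 (Pearson r = 0.91), Eef1a1 (0.80), Prune2 (0.80), Cited1 (0.80) and Pcdh7 (0.79). For Npy1r they were Npy itself (0.77), Prune2 (0.77), Eef1a1 (0.74), Irs4 (0.73) and Pcdh7 (0.72). For Npy5r they were Irs4 (0.68), Frmpd4 (0.68), Sft2d2 (0.65), Unc5d (0.60) and Npy1r (0.60). After the group means and batch were taken out, the closest were Pcdhb3, Cystm1 and Akap17b for Npy (0.63, 0.59, 0.59), Pak1ip1, Rras2 and Tmem9b for Npy1r (0.64, 0.63, 0.61), and Fam53b, Gab3 and Gm26527 for Npy5r (0.67, 0.59, 0.58).

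The correlation between the neighbouring receptor genes varied by nucleus. Pearson r between Npy1r and Npy5r was 0.68 over 10 PVN libraries and 0.71 over 11 VMH libraries, 0.15 over 9 ARC libraries and -0.64 over 11 DMH libraries. Once group means and batch were taken out it was 0.25 over all 41. Differences between these coefficients were not tested.

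Genes around the peptide were read from gene lists chosen with earlier results of these data known. The number called from a list, here and below, is therefore not independent of these data. Of the 4 measured genes of the peptide family and its receptors the remaining one was Npy4r, the receptor preferred by pancreatic polypeptide, which had a log2 difference of -1.92 ± 0.68 in ARC (adjusted p = 0.471) and 0.13 ± 0.63 in PVN (adjusted p = 0.973) and was too low to test in DMH and VMH. Of 6 genes of the Npy neuron measured in ARC, 1 rose and 5 did not pass, where 0.104% of all genes were called higher. The one that rose was Lepr, the leptin receptor, from 23.9 ± 7.30 CPM fed to 70.2 ± 26.2 CPM fasted, a change of 1.49 ± 0.31 (adjusted p = 0.0867). Ghsr, the ghrelin receptor, had a log2 difference of 0.91 ± 0.34 (adjusted p = 0.513), which ran from 0.50 to 1.31 as replicates were left out and was called without fasted ARC-305 (1.31, adjusted p = 0.0861). In PVN, 0 of 4 passed, where 0.367% of all genes were called. Lepr was at 0.30 ± 0.45 there and Slc32a1, the vesicular GABA transporter, at -0.11 ± 0.37.

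Of 3 regulators of Npy transcription measured in ARC, 1 rose, beside the same 0.104% of all genes. Foxo1, a transcription factor held out of the nucleus by insulin signalling, went from 101.4 ± 18.9 to 174 ± 23.1 CPM, a change of 0.76 ± 0.16 (adjusted p = 0.0867). Averaged over nuclei it rose by 0.34 ± 0.10 (adjusted p = 0.0531, with 1.52% of genes called higher), which was not called without the ARC libraries (0.20, adjusted p = 0.551). That call was also lost without mouse-86, mouse-100, mouse-111, mouse-308 or mouse-311 (adjusted p = 0.13, 0.154, 0.163, 0.176 and 0.146), with 1 value per mouse (0.371), without batch (0.425) and with a depth covariate (0.118). Bsx, a homeobox factor of Npy neurons, had a log2 difference of 0.52 ± 0.32 in ARC (adjusted p = 0.691). Prkaa1, a catalytic subunit of AMP-activated kinase, and Foxo1 did not pass in PVN (0.03 ± 0.17 and 0.33 ± 0.20). The ARC calls of Lepr and Foxo1 were both lost without fasted ARC-100, ARC-311 or ARC-86 or without fed ARC-111, ARC-125, ARC-127 or ARC-308, with adjusted p values from 0.123 to 0.366. They were also lost with a pseudocount of 0.1 (adjusted p = 0.128 for both) or no filter on low values (0.131 for both), without batch (0.314 for both) and, for Lepr, with a depth covariate (0.132).

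Of 9 measured signalling partners of the receptors, 0 passed in ARC and 0 in PVN, where 0.176% and 0.367% of all genes were called. The median change of the 9 partners was 0.06 in ARC and 0.14 in PVN, beside 0.02 and 0.01 over all genes tested. Kcnj9 and Kcnj5, subunits of the potassium channels opened by inhibitory G proteins, had log2 differences of 0.41 ± 0.24 in ARC and 0.80 ± 0.46 in PVN, respectively. The inhibitory G protein subunits Gnai3 and Gnai2 had log2 differences of -0.46 ± 0.28 in ARC and 0.16 ± 0.13 in PVN, respectively.

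Of 6 measured genes that process or store peptides, 0 passed in ARC and PVN, where 0.176% and 0.367% of all genes were called. In the average over nuclei 1 rose, and 1.52% of all genes were called higher. Pcsk1n, which encodes an inhibitor of prohormone convertase 1, rose by 0.20 ± 0.06 averaged over nuclei (adjusted p = 0.0479), with 0.29 ± 0.12 in ARC and 0.40 ± 0.11 in PVN, where it was called with library weights alone (0.42, adjusted p = 0.0637). The call averaged over nuclei was lost without mouse-100, mouse-127, mouse-305, mouse-308, mouse-311 or mouse-313, with adjusted p values of 0.147, 0.102, 0.156, 0.342, 0.247 and 0.101. It was also lost with 1 value per mouse (adjusted p = 0.605), without the ARC libraries (0.242), without batch (0.885) and with a depth covariate (0.195). Scg2, a secretory granule protein, had a log2 difference of 0.24 ± 0.09 in ARC (adjusted p = 0.522). Dpp4, a peptidase that shortens neuropeptide Y, had a log2 difference of -1.52 ± 0.64 in PVN (adjusted p = 0.448).

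Of the other feeding peptides and their receptors, 0 of 5 passed in ARC and 0 of 5 in PVN, where 0.176% and 0.367% of all genes were called. Mc3r, a melanocortin receptor, had a log2 difference of -0.45 ± 0.29 in ARC. Bdnf, a neurotrophin, had a log2 difference of -0.30 ± 0.72 in ARC and -0.65 ± 0.30 in PVN. Avp had a log2 difference of 0.35 ± 0.12 in PVN (adjusted p = 0.31).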

How the data were processed

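The members and gene lists were chosen with earlier results of these data known. Per the labels and methods, nuclei were laser captured from cresyl violet-stained sections, RNA was amplified (Ovation RNA-Seq V2), libraries were made in 3 batches, and reads were mapped to GRCm38. The submitters' processing notes name CASAVA 1.7, TopHat2 2.0.11, Cufflinks 2.2.1, edgeR and limma; the counting program and use of strand are not given in the sources used here. Outlier libraries had been removed by the authors, which can narrow the spread. The authors deposited CPM per Ensembl gene. Rows summed to 554896 to 689010 CPM a library; genes outside the table, among them Pyy, Ppy and Npy2r, were not analysed here. Of 43 value columns, 41 matched a sample, 2 matched none and were not used, and 2 samples were not analysed here. The unmatched columns are headed ARC for mouse-85 and mouse-92, whereas the samples left without values carry PVN labels for those mice, so the nucleus of these libraries is in conflict, and in batch 1 both ARC and PVN have 1 fasted and 1 fed library. Low values were whole multiples of 1 read in 97.1% to 98.7% of cases (tolerance 0.05), which gave depths, but whole reads were not recovered for all genes, so no count test was run. Amplified reads are not separate molecules, so floors (3 reads) cover counting error only.

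Tests used limma 3.58.1 (R 4.3.3; lmFit, eBayes with trend) on log2(CPM + 0.5), which understates changes of low genes, and were 2-sided. Genes were kept at 1 CPM in as many libraries as the smallest group. P values were adjusted over all genes kept (Benjamini-Hochberg, threshold 0.1). Fits of 1 nucleus had batch as covariate. Fits over all 41 libraries had 8 group means, batch and mouse as a random block; the correlation within mice was -0.00325. Code was tested on simulated data. From each list, genes were named if past the threshold, or if among the 2 smallest p values in ARC and PVN. The 5 genes closest in level and the 3 closest in residuals to each member were named, at a mean of at least 5 CPM. Alternatives were other pseudocounts, filters, normalizations, covariates, weights and blocks and leaving out each replicate. Added after the data were seen were 1 value per mouse, the permutation over mice, with and without mouse-92, and a fit without ARC.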

Additional observations from a re-analysis of the deposited data

Results flagged for a closer look

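Each group, of 4 to 6 libraries, was searched for a library whose gap to its nearest neighbour was large beside the group's range. Of 24 groups tested over the 3 genes, 4 had such a library by Dixon's test on CPM. About 1.2 would be flagged by chance if values were normally distributed. Npy outside ARC was low and skewed, with means above medians, so the count shows no excess over chance. Npy in fed DMH was 33.4 CPM in DMH-92, and the next library was at 5.45 CPM. Of the ARC markers, DMH-92 had the highest Crabp1 (8.12 CPM) of the fed DMH libraries, but its Isl1 (18.9 CPM), Th (45.5 CPM) and Rxfp1 (0.580 CPM) lay within the range of the others, and the ARC marker sum was highest in DMH-111 (103 CPM). DMH-92 also had the highest PVN marker sum (44.96 CPM) and the highest oligodendrocyte (1316 CPM) and microglia (80.1 CPM) marker sums of that group. Of the PVN sum, 41.2 CPM was Nrn1. Crh was 2.32 CPM, the highest of the group, but Avp was 1.45 CPM, within the group's range of 0.385 to 2.73 CPM. Npy in fasted PVN was 9.93 CPM in PVN-305, the next being 3.70 CPM, and that library held 0.382 CPM of Crabp1. It had the highest oligodendrocyte (465 CPM) and tanycyte and ependyma (77.5 CPM, of which Col25a1 71.4 CPM) marker sums of its group. Npy in fed VMH was 11.9 CPM in VMH-111, the next being 3.00 CPM, and that library had the highest oligodendrocyte (1496 CPM) and microglia (83.5 CPM) marker sums of its group. Npy1r in fasted VMH was 16.8 CPM in VMH-86, below the next at 25.6 CPM, and that library had the highest oligodendrocyte (1224 CPM), vessel (79.0 CPM), PVN (6.12 CPM) and DMH (89.7 CPM) marker sums of its group. With several marker sums and few libraries in a group, any library can be highest in some of them by chance. The part of these other values was not tested.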

How the results depend on the processing

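Over the 3 genes, 1212 of 1263 values under other settings kept their direction and their side of the threshold, and the rest follow as log2 changes, those from leaving out replicates as ranges. The cause of these shifts was not tested. Without batch in the fit, Npy in ARC was 1.33 and Npy5r averaged over nuclei -1.06 (adjusted p = 0.423), neither called, Npy in DMH was -0.241 and Bdnf in ARC 0.0446. Library weights gave -0.753 for Npy5r averaged over nuclei, no longer called, -0.314 for Npy1r in PVN against the other nuclei, now called, and -0.0206 for Npy1r in PVN against VMH. A pseudocount of 2 gave 0.0391 for Npy in DMH against PVN and -0.0416 for its fasting change in DMH, and it added calls for VMH against the other nuclei, -0.308 for Npy1r and -0.559 for Npy5r. A depth covariate gave -0.322 and -0.805 for the same contrasts, also called, -0.367 for Npy5r in fasted VMH and 0.144 for Bdnf in ARC. Quantile normalization gave -0.0534 for Npy in fasted DMH. The paired analysis, with a replicate block of mouse as fixed effect, gave -0.842 for Npy in DMH against VMH (adjusted p = 0.0761). It was run for levels and fasting changes compared between nuclei, where it changed no other call of the 3 genes. It was not run for the fasting changes themselves. Residuals of libraries of 1 mouse had a median correlation of -0.0512 over 57 pairs, against 0.0143 between mice. With 1 value per mouse, Npy averaged over nuclei was -0.0718 and Npy5r -1.13, and without ARC Npy5r was -1.19.

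Leaving out replicates in turn gave these ranges. Fasting changes ran from -0.319 to 0.551 for Npy in DMH, -0.311 to 1.12 for Npy5r in VMH and -1.27 to -0.607 for Npy5r averaged over nuclei. Npy1r in ARC less its change in PVN ran from -0.0344 to 0.322. Between nuclei, Npy in DMH against PVN ran from -0.298 to 0.228, Npy1r in PVN against VMH from -0.0705 to 0.129, Npy5r in DMH against VMH from -0.0784 to 0.416 and Npy5r in PVN against VMH from -0.604 to 0.0927. Against the mean of the other nuclei, Npy1r ran from -0.382 to -0.215 in PVN and -0.395 to -0.228 in VMH, and Npy5r from -1.29 to -0.847 in PVN and -0.971 to -0.482 in VMH. Calls were gained there for Npy1r in VMH without mouse-101, mouse-125, mouse-305 or mouse-308 (adjusted p = 0.083, 0.0465, 0.0881 and 0.0543), for Npy1r in PVN without mouse-311 (0.0942) and for Npy5r in VMH without mouse-100 or mouse-308 (0.0678 and 0.0568). Of the listed genes, Bdnf in ARC ran from -0.958 to 0.336, and in PVN Lepr from -0.0395 to 0.569, Prkaa1 from -0.0504 to 0.137 and Slc32a1 from -0.365 to 0.216. Npy5r in PVN rested on 0 to 33 reads a library, which limits its precision.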
